A study of Mus musculus with 7 samples.

Results

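The heat shock and DNAJ chaperone genes are described here in nascent RNA of mouse GFI1+ IAHC, the cells of the intra-aortic hematopoietic clusters from which blood stem cells emerge. The genes were chosen by symbol alone. They are all protein-coding genes whose mouse symbol starts with Hspa, Hspb, Hspd, Hspe, Hsph, Hsp90, Dnaja, Dnajb or Dnajc and goes on with a number or a letter and number, which leaves out the co-chaperones Hspbp1 and Hspbap1. The rule found 72 genes among the 21974 protein-coding genes and the 55487 genes in all of the count table. By their symbols these are 11 HSP70 genes, 3 HSP110 genes (Hspa4, Hspa4l and Hsph1), 3 HSP90 genes, 8 small HSP genes, 2 chaperonin genes and 4 DNAJA, 13 DNAJB and 28 DNAJC genes.

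CD31+cKIT+GFI1+ cells were sorted from the AGM of E11.5 embryos of the strain labelled CD1/Gf1+, which carries the Gfi1:tomato reporter, and all of them spent the night in compE, which blocks γ-secretase, the protease that releases the intracellular domain of Notch. Batches of 300 to 400 cells then went into culture for 4 h in methylcellulose with EU, a uridine analog that marks RNA made during that time, and with recombinant Fc-JAG1, a soluble form of a Notch ligand (Fc-JAG1, n = 2, samples 1 and 3), with compE again (compE, n = 2, samples 1 and 2), or with DMSO after compE was washed out (washout, n = 3, samples 1, 2 and 3). The labels call a sample number an embryo, whereas the methods describe cells from pools of embryos, and the labels and the methods differ in the units of the compE and Fc-JAG1 doses. EU-labelled RNA was captured, pre-amplified and sequenced, and the comparisons ask which genes respond when Notch is released, kept blocked or offered soluble JAG1.

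Total counts ran from 21652927 to 33974693 per library, and libraries differed more in how many genes they held than in depth. Levels are given as CPM, counts scaled to a common total of counts assigned to genes. At least 10 counts were found for 10298 and 7203 protein-coding genes in Fc-JAG1 1 and 3, for 7294 and 10617 in compE 1 and 2, and for 5628, 10840 and 6839 in washout 1, 2 and 3. The markers of the sorted cells were largely present, with 9 of 10 passing the filter on low counts, although Gfi1 itself had 0 counts in 4 of 7 libraries and Cdh5 did not pass. Pecam1, which encodes the sort marker CD31, had 11 counts in Fc-JAG1 3 and 18 in washout 1, against 1186 to 6314 in the other libraries. Ptprc had 3 counts in washout 3, and Gata2 had 0 in compE 1. None of the 24 markers of mesenchyme, neural cells and epithelium passed, with summed levels of at most 26.1 CPM for a list in a library. For macrophages 3 of 8 markers passed, with summed levels of 91.6 to 524 CPM. Csf1r had 1018 to 3627 counts in each library and Lyz2 ran from 0 (compE 1) to 13012 (Fc-JAG1 1), while C1qc was at 0 throughout. For erythroid cells 5 of 10 passed, with 20.04 to 605 CPM. Hbb-bs ran from 0 (washout 3) to 10649 counts (washout 2), while Alas2 was at 0 throughout. In bulk RNA, fewer cells of a type and less RNA per cell cannot be told apart.

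Molecular chaperones bind unfolded protein and keep it from clumping until it can fold. HSP70 proteins hold short stretches of a client in an ATP-driven cycle that DNAJ proteins start and HSP110 proteins reset by exchanging the nucleotide, and HSP90 takes over clients that are close to their final fold, such as kinases and steroid receptors. The chaperonin HSPD1 and its lid HSPE1 form a folding chamber in mitochondria, and small HSPs hold unfolded protein without ATP. Some of these genes are transcribed at all times, others only after heat or other proteotoxic stress through HSF1, which binds heat shock elements, and those of the endoplasmic reticulum (ER) answer to the unfolded protein response through the ER stress element. In blood stem cells, chaperones and the unfolded protein response are known for their role in protein homeostasis.

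Both elements can be read in the promoters. Promoter windows from RefSeq on GRCm38.p6, which run from 250 bases before to 50 bases after a start site, were at hand for 58 of the 72 genes. The 3-unit heat shock element, searched as GAANNTTCNNGAA on both strands, was in windows of 4 of these 58 genes (6.90%), and in those of 179 of all 27025 genes (0.662%). The 4 were Hspd1, Hspe1, Dnajb6 and Hsph1. In Hsph1 it lay 15 to 27 bases after a start site. The heat-inducible genes Hspa1a, Hspa1b, Hspb1 and Dnajb1 were searched and held no match of this pattern in their windows. Hsp90aa1, Hsp90ab1 and Hspa8 are among the 14 genes without a window and were not searched for either element. Looser forms of the elements and sites outside the windows were not searched either. The ER stress element, searched as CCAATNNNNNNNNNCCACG on both strands, was in windows of 3 genes (5.17%), against 37 of all 27025 (0.137%), and these were the ER chaperones Hspa5, Hsp90b1 and Dnajc3. No match of the heat shock element overlapped a match of the ER stress element. The stretches before the start sites that hold a match are printed because the levels of their genes are described in turn, and the matched letters are in capitals. The heat shock element of Hspe1 (chr1:55088053-55088082, plus strand) lies before a RefSeq start site of each of the head-to-head chaperonin genes Hspe1 and Hspd1, and holds overlapping matches on both strands. That of Dnajb6 is at chr5:29735844-29735873 (plus strand). The ER stress elements are at chr2:34772020-34772049 (Hspa5, plus strand), chr10:86705617-86705676 and chr10:86705512-86705571 (Hsp90b1, minus strand) and chr14:118937807-118937866 (Dnajc3, plus strand).
Hspe1 and Hspd1: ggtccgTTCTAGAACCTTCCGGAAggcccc
Dnajb6: agctccgaGAATCTTCCGGAAcgctagacc
Hspa5: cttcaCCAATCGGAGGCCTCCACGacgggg
Hsp90b1, distal: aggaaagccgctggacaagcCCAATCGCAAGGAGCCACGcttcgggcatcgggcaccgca
Hsp90b1, proximal: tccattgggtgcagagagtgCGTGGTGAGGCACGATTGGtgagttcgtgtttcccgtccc
Dnajc3: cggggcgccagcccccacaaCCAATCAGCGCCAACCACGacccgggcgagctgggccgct

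Chaperone genes were detected more often than protein-coding genes at large in every library, and which of them were detected changed from library to library. At least 10 counts were found for 48 and 33 of the 72 genes in Fc-JAG1 1 and 3, for 40 and 46 in compE 1 and 2, and for 27, 53 and 38 in washout 1, 2 and 3. The 3 conditions overlap in this number, and the 3 libraries with the most chaperone genes were also the 3 with the most protein-coding genes. In all 7 libraries, 19 chaperone genes had at least 10 counts (26.4%, against 13.1% of all protein-coding genes), while 15 had fewer than 10 in each library (20.8%, against 39.2%). In a count chosen after seeing the data, without washout 1, the library with the fewest genes, 24 were at 10 or more in all others. Of the 72 genes, 45 passed the filter of the methods, at least 10 counts in at least 2 libraries of 1 condition, which 10311 genes passed in all. Among genes that passed it, the share with at least 10 counts in Fc-JAG1 1 was 91.1% for chaperones and 92.2% for protein-coding genes. It was 73.3% against 71.2% in Fc-JAG1 3 and 84.4% against 72.5% in compE 1, and also higher for chaperones in each other library.

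**Figure D1:**
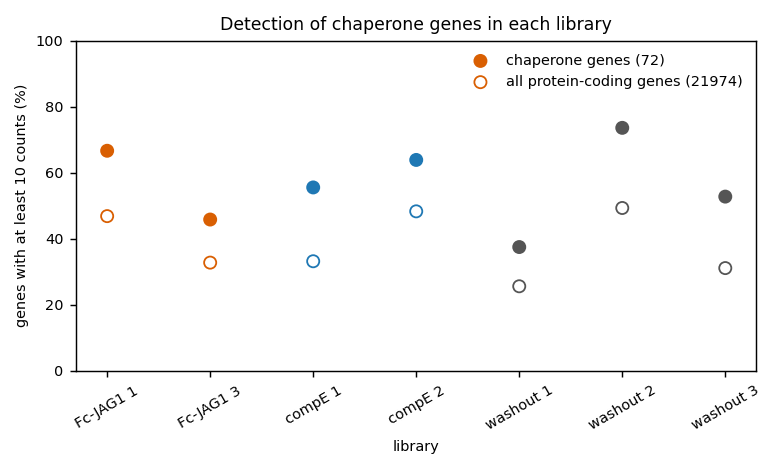
Share of genes with at least 10 counts (%, y axis) in each library (x axis), for the 72 chaperone genes (filled) and all 21974 protein-coding genes (open), coloured by condition. Chaperone genes range from 37.5% in washout 1 to 73.6% in washout 2, and lie above the protein-coding genes in each library.

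Taken over all 72 genes, the chaperones held a similar part of the nascent RNA in the 3 conditions. Their summed level was 10332 and 7465 CPM in Fc-JAG1 1 and 3, 9264 and 10770 CPM in compE 1 and 2, against 8984, 10448 and 8633 CPM in washout 1, 2 and 3. This came to 8899 ± 2027 CPM with Fc-JAG1 (SD, n = 2) and 10017 ± 1065 CPM with compE (SD, n = 2), against 9355 ± 963 CPM in the washout (SD, n = 3), so the differences between conditions were smaller than the spread within Fc-JAG1.

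HSP90 genes made up the largest class by summed level in 6 of the 7 libraries, the exception being compE 1, where DNAJC genes did. Hsp90ab1, the constitutive HSP90 of the cytosol (chromosome 17, 45567775 to 45573271 of GRCm38), held 17.8% to 28.1% of the chaperone counts of a library. Its counts were 86717 and 35052 in Fc-JAG1 1 and 3, 60388 and 95904 in compE 1 and 2, against 54660, 85085 and 67766 in washout libraries 1, 2 and 3. Hsp90ab1 was the chaperone with the highest count in every library, and its lowest value was in Fc-JAG1 3. Hsp90aa1, the heat-inducible HSP90 of the cytosol, had 7651 and 1246 counts in Fc-JAG1 1 and 3, 2817 and 7175 in compE 1 and 2, against 4228, 7953 and 7840 in washout libraries 1, 2 and 3. Per kb of exon, Hsp90ab1 stood 11.3 to 36.9 times above Hsp90aa1 in a library. For Hsp90aa1, 47.5% of the 50-base windows of its transcripts also occur in transcripts of other genes, most of them in Gm12346, and reads from such windows are lost where uniquely mapped reads are counted. Hsp90b1, the HSP90 of the ER also known as GRP94, had 5684 and 17650 counts in Fc-JAG1 1 and 3, 4238 and 8142 in compE 1 and 2, against 520, 9694 and 9750 in washout libraries 1, 2 and 3. Fc-JAG1 3 thus held the highest value of Hsp90b1 and washout 1 the lowest.

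Levels were compared between genes as CPM per kb of annotated exon. The 10 highest by this measure, averaged over the 7 libraries, were Hsp90ab1 (782 CPM per kb), Hspa5 (224), Hspa9 (136), Hspd1 (134), Dnaja2 (125), Hspe1 (97.4), Hspa4 (91.1), Hspa8 (89.2), Dnajc8 (86.7) and Hsp90b1 (66.8). The methods count reads with the gene as the feature, so that introns may add to a count. Per kb of the whole gene span 8 of these 10 were again among the 10 highest, with Hsp90ab1 and Hspa5 first, while Dnajb1 and Hsp90aa1 took the place of Hspa4 and Dnajc8, and Hspe1 and Hspa8 ranked above Hspa9 and Hspd1.

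Among HSP70 genes, 4 of 11 had at least 10 counts in all 7 libraries, and all 4 are constitutive. Hspa5, the HSP70 of the ER also known as BiP, had 28369 and 24689 counts in Fc-JAG1 1 and 3, 20761 and 33904 in compE 1 and 2, against 20401, 23929 and 43539 in washout libraries 1, 2 and 3. It was among the steadiest of the chaperones, with a coefficient of variation (CV) of its CPM of 22.0% over the 7 libraries. Hspa9, the HSP70 of mitochondria, had 22491 and 8721 counts in Fc-JAG1 1 and 3, 16824 and 23622 in compE 1 and 2, against 15217, 22208 and 10873 in washout libraries 1, 2 and 3. Hspa8, the constitutive HSP70 of the cytosol, had 15442 and 8076 counts in Fc-JAG1 1 and 3, 14426 and 17812 in compE 1 and 2, against 4149, 14070 and 6811 in washout libraries 1, 2 and 3. For Hspa8 both compE libraries lay above all 3 washout libraries in CPM, at 516 ± 11.8 CPM with compE (SD, n = 2) and 292 ± 153 CPM in the washout (SD, n = 3), while 39.4% of its windows occur in other genes. Hspa14, which acts at the ribosome, had 2007 to 7833 counts over the 7 libraries.

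Counts of the HSP70 genes that heat induces were at or near 0, except for Hspa1b in washout 2. Hspa1a had 0 counts in all 7 libraries, and Hspa1b had 1 and 0 counts in Fc-JAG1 1 and 3, 0 in both compE libraries, against 0, 356 and 0 in washout 1, 2 and 3. A count of 0 allows a level of up to 0.0883 to 0.139 CPM, depending on the library, and this limit covers counting error only. The pair shares most of its sequence, with 66.3% of the windows of Hspa1a and 62.3% of those of Hspa1b occurring in another gene, so that reads from the shared part would not have been counted. Hspa1l, which is known from the testis, had at most 4 counts. Hspa2, another HSP70 known from germ cells, ran from 1 count in Fc-JAG1 1 and in washout 3 to 862 in washout 2.

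**Figure D2:**
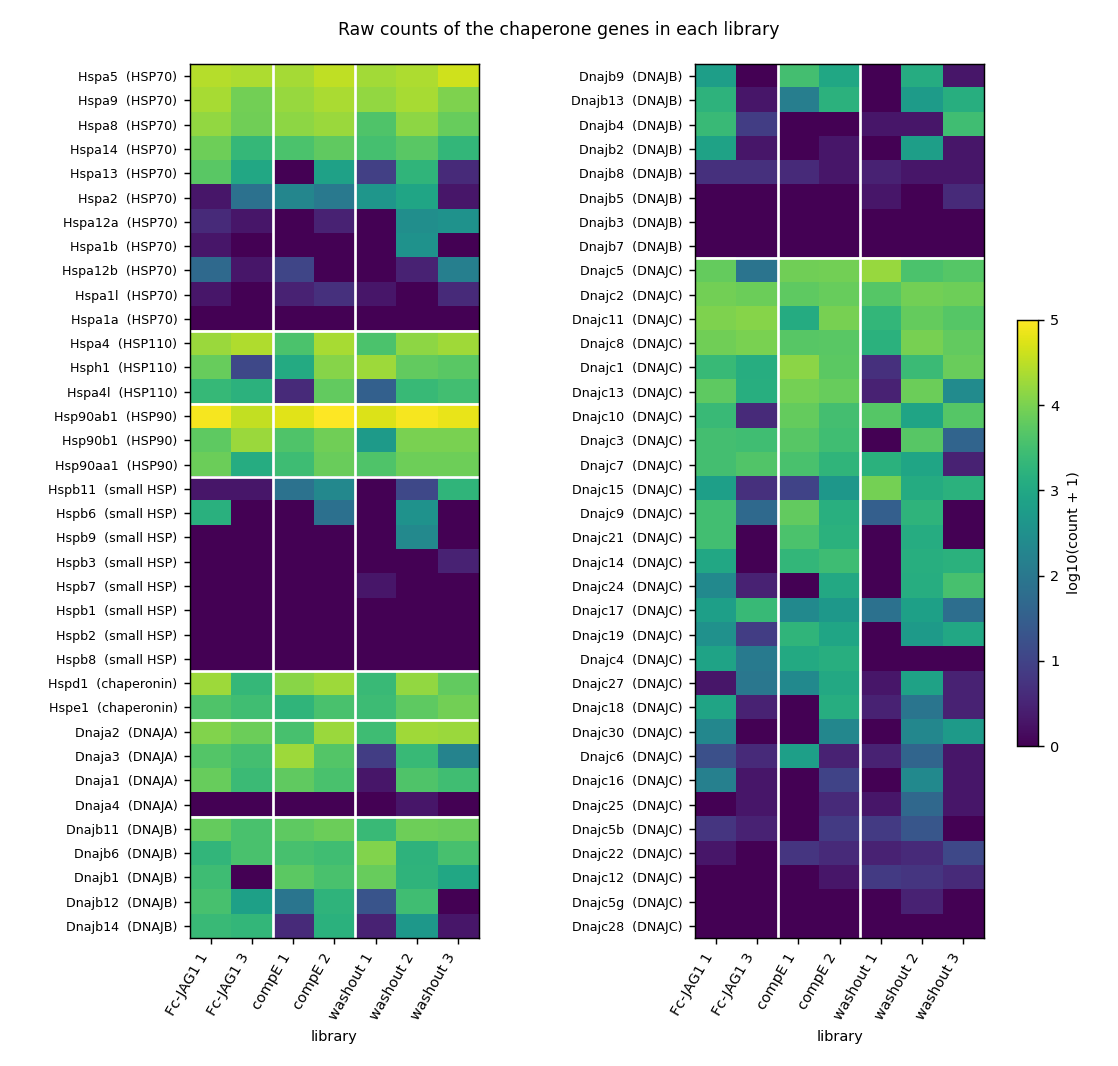
Raw counts, as log10(count + 1) in colour, of all 72 chaperone genes (in 2 panels, by class and then by mean level) in the 7 libraries (columns, by condition). The rows of Hsp90ab1, Hspa5 and Hspa9 are bright in every library, whereas many rows of DNAJB and DNAJC genes are dark in 1 library and bright in another of the same condition.

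The HSP110 genes, which exchange the nucleotide of HSP70, varied more than Hspa5 and Hspa9, with CVs of 56.9% for Hspa4, 89.6% for Hspa4l and 109% for Hsph1. Hspa4 had 17562 and 25439 counts in Fc-JAG1 1 and 3, 3846 and 22240 in compE 1 and 2, against 3752, 13829 and 18991 in washout libraries 1, 2 and 3. Hsph1, a heat-inducible member, had 6771 and 11 counts in Fc-JAG1 1 and 3, 1160 and 12175 in compE 1 and 2, against 18437, 6312 and 5185 in washout libraries 1, 2 and 3. The range of Hsph1 was thus set by Fc-JAG1 3 at the low end and washout 1 at the high end. Hspa4l had 3 counts in compE 1 and 33 in washout 1, and 1614 to 6277 in the other 5 libraries.

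Hspd1 and Hspe1, the chaperonin and its lid, lie head to head on chromosome 1, and their first exons in GENCODE overlap by 112 bp on opposite strands. Hspd1 had 18799 and 2170 counts in Fc-JAG1 1 and 3, 12653 and 18815 in compE 1 and 2, against 2400, 15231 and 6180 in washout libraries 1, 2 and 3. Hspe1 had 4261 and 2877 counts in Fc-JAG1 1 and 3, 1887 and 3704 in compE 1 and 2, against 2727, 5857 and 8537 in washout libraries 1, 2 and 3. The pair did not keep a fixed ratio. Per kb of exon, Hspd1 stood at 2.46 and 0.421 times Hspe1 in Fc-JAG1 1 and 3, at 3.74 and 2.83 times in compE 1 and 2, and at 0.491, 1.45 and 0.404 times in washout 1, 2 and 3. The ratio was above that of all other libraries in compE 1 and 2, and Fc-JAG1 and the washout overlapped. Of the windows of Hspd1, 42.1% occur in other genes, most of them in the pseudogene Hspd1-ps3.

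DNAJ genes were the most numerous. Of 4 DNAJA genes 1 had at least 10 counts in all 7 libraries, of 13 DNAJB genes 2, and of 28 DNAJC genes 5. Dnaja2, a main partner of HSPA8, had 11067 and 7567 counts in Fc-JAG1 1 and 3, 3503 and 17631 in compE 1 and 2, against 2739, 19732 and 17433 in washout libraries 1, 2 and 3. Dnaja1, another partner of HSPA8, had 1 count in washout 1 and 2524 to 6741 in the other 6 libraries. The 2 DNAJB genes found throughout were Dnajb6, which keeps polyglutamine proteins from clumping and had 1707 to 11454 counts with the highest in washout 1, and Dnajb11, an ER partner of HSPA5, which had 2474 to 7738.

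Dnajc2, which recruits HSP70 to the ribosome, was the steadiest chaperone gene. It had 8454 and 7447 counts in Fc-JAG1 1 and 3, 5684 and 6819 in compE 1 and 2, against 4874, 8806 and 7771 in washout libraries 1, 2 and 3, with a CV of its CPM of 15.2%. Both compE libraries lay below all others in CPM, at 200.4 ± 0.488 CPM (SD, n = 2), against 271 ± 16.99 CPM with Fc-JAG1 (SD, n = 2) and 254 ± 34.8 CPM in the washout (SD, n = 3). The other 4 DNAJC genes found throughout were Dnajc5, Dnajc8, Dnajc11 and Dnajc17. Dnajc5, a synaptic vesicle chaperone that other cells also use in secretion, had 82 counts in Fc-JAG1 3 and 16721 in washout 1. Dnajc8, a nuclear protein found with splicing factors, had 1585 to 9871 counts. Dnajc11, a protein of the mitochondrial membranes, had 1173 to 12540, and Dnajc17 had 63 to 2321. Over the 19 chaperone genes with at least 10 counts in all 7 libraries, the median CV was 47.0%, against 66.8% over all 3035 such genes of the table.

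Dnajc21 and Dnajc7 were each under 10 counts in some libraries. Dnajc21, a factor of ribosome biogenesis, had 3113 and 0 counts in Fc-JAG1 1 and 3, 3837 and 1586 in compE 1 and 2, against 0, 1241 and 0 in washout libraries 1, 2 and 3. Dnajc7, which links HSP70 and HSP90, had 3183 and 4362 counts in Fc-JAG1 1 and 3, 3712 and 1850 in compE 1 and 2, against 1558, 859 and 2 in washout libraries 1, 2 and 3. Both Fc-JAG1 libraries of Dnajc7 were thus above all 3 washout libraries in counts and in CPM, but not once CPM were divided by the TMM factors of edgeR (87.4 for Fc-JAG1 1 and 185 for Fc-JAG1 3, with washout libraries 1, 2 and 3 at 90.5, 23.8 and 0.0713). Dnajc7 was not called by edgeR (log2 fold change 3.20, standard error 3.80, adjusted p = 0.992) or by DESeq2, which called it with TMM factors (adjusted p = 0.0475), as it did Dnajc9 (adjusted p = 0.0458). A mean level does not tell which genes were found throughout: of the 38 chaperone genes with at least 10 counts in 1 to 6 libraries, 20 had a higher mean CPM than Dnajc17, the lowest of the 19 found in all 7, and the highest of these 20 was Dnaja3.

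Of 8 small HSP genes, 1, Hspb11, passed the filter, and Hspb1, Hspb2 and Hspb8 had 0 counts in all libraries. Hspb11, whose product is a part of the intraflagellar transport machinery and carries the name of a small HSP, had 1 and 1 counts in Fc-JAG1 1 and 3, 74 and 218 in compE 1 and 2, against 0, 11 and 1900 in washout libraries 1, 2 and 3. For Hspb1, 50.1% of the windows also occur in another gene, most of them in Hsp25-ps1. Hspb6 had 1502 counts in Fc-JAG1 1, 68 in compE 2 and 350 in washout 2, and 0 in the other 4 libraries.

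Grouped by place of action, the sums of the conditions overlapped in each group but for the mitochondrial chaperones, where both compE libraries lay above all 3 washout libraries in CPM and overlapped them once CPM were divided by TMM factors. The 11 ER chaperones, of which all passed the filter, summed to 1880 and 2052 CPM in Fc-JAG1 1 and 3, to 2146 and 2034 CPM in compE 1 and 2, and to 1300 (washout 1), 1919 (washout 2) and 2344 CPM (washout 3). The 8 mitochondrial chaperones summed to 1894 and 1119 CPM in Fc-JAG1 1 and 3, to 1862 and 1815 CPM in compE 1 and 2, and to 1454, 1805 and 1065 CPM in washout 1, 2 and 3. Divided by TMM factors the mitochondrial sums were 2055 for compE 1 and 1542 for compE 2, with washout libraries 1, 2 and 3 at 1805, 1455 and 1188. Both compE sums in CPM lay within the range of Fc-JAG1, and no test was made of the sum. A group of 8 genes was taken from those that heat is known to induce through HSF1 (Hspa1a, Hspa1b, Hspb1, Hspb8, Dnaja4, Dnajb1, Hsph1 and Hsp90aa1). It summed to 526 and 47.7 CPM in Fc-JAG1 1 and 3, to 332 and 676 CPM in compE 1 and 2, and to 1363, 546 and 441 CPM in washout 1, 2 and 3. Hspd1, Hspe1 and Dnajb6, whose heat shock elements are shown above, are not in this group, so its sum is not that of all heat-inducible chaperones. In this group 3 genes, Hsp90aa1, Hsph1 and Dnajb1, held nearly all of the counts.

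**Figure D3:**
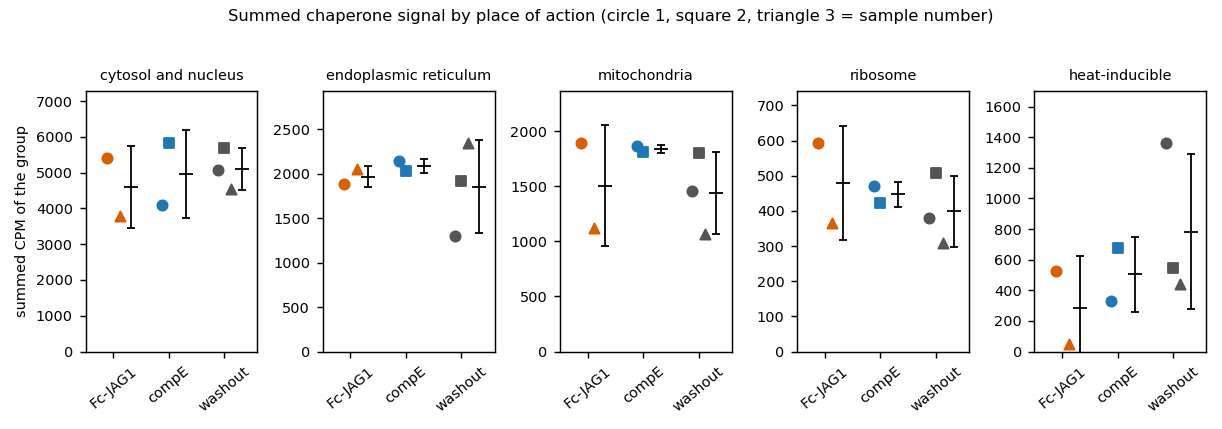
Summed CPM (y axis, from 0) by condition (x axis) of the chaperones of the cytosol and nucleus (21 genes), ER (11), mitochondria (8) and ribosome (3). The last panel holds a chosen group of 8 heat-inducible genes, of which 6 are also among the cytosolic ones. Each symbol is a library, shaped by sample number, and the bar beside it is the mean with the SD. The conditions overlap in each panel except for compE above the washout in mitochondria (lowest compE sum 1815 CPM, highest washout sum 1805 CPM), a gap that does not hold after division by TMM factors, and the heat-inducible sum is lowest in Fc-JAG1 3 and highest in washout 1.

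The effect of Fc-JAG1 was assessed against the washout. By edgeR's quasi-likelihood test with the sample number as a block, 0 of the 45 chaperone genes that passed the filter changed at an adjusted p under 0.05, as did 0% of all 10311 genes. At an unadjusted p under 0.05, Hspa13 and Dnajb14 were higher (2 of 45, against 3.89% of all genes) and Hsp90ab1 was lower (1 of 45, against 1.21%). With no replicate block none of these 3 stayed under 0.05 by edgeR, where 0 chaperone genes were higher and 1, Hspa12a, was lower. The Wald test of DESeq2, fitted with those terms, and where a call also needs at least 10 counts in at least 2 libraries of either condition as the methods have it, called 5 chaperone genes higher, against 15.7% of all genes, and 4 lower, against 4.74%. This split depends on the scaling and on Fc-JAG1 1. With TMM factors DESeq2 called 7 higher and 2 lower (over all genes 1822 and 341, against 1619 and 489 with its own factors), and without Fc-JAG1 1 it called 2 higher and 9 lower (over all genes 611 and 1321). The median log2 fold change of the 45 by edgeR was 0.16 and that of all genes 0.44. In 5 chaperone genes, Dnaja3, Dnajb14, Dnajc4, Dnajc7 and Dnajc11, both Fc-JAG1 libraries lay above all 3 washout libraries (10.4% of all genes), and in 1, Dnajc15, both lay below (6.31% of all genes), in CPM. After division by TMM factors, an alternative added after seeing the data, Dnajc7 left the first group (10.5% of all genes) and Hsp90aa1 and Hspe1 joined Dnajc15 (6.95% of all genes).

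Hspa13, an HSP70 of the ER known for a role in protein translocation (chromosome 16, 75745431 to 75767104), had 5336 and 1000 counts in Fc-JAG1 1 and 3, 0 and 734 in compE 1 and 2, against 8, 1898 and 3 in washout libraries 1, 2 and 3. Its levels were 101 ± 88.6 CPM with Fc-JAG1 (SD, n = 2), 10.8 ± 15.3 CPM with compE (SD, n = 2) and 21.2 ± 36.3 CPM in the washout (SD, n = 3). Washout 2 lay between the Fc-JAG1 libraries in raw counts. The log2 fold change with Fc-JAG1 was 8.78 by edgeR (standard error 4.03, unadjusted p = 0.0405, adjusted p = 0.828) and 8.42 by DESeq2 (adjusted p = 0.000326). In fits that left out 1 library its DESeq2 adjusted p was at most 0.0378. The log2 fold change of Hspa13 with no replicate block was 2.34 by edgeR (adjusted p = 0.967) and 2.49 by DESeq2, which gave it no adjusted p. Sample 2 has no Fc-JAG1 library, so in the fit with the block washout 2 (1898 counts) bears on this fold only through compE. The fold with the block thus rests mainly on samples 1 and 3. Dnajb14, a DNAJ protein of the ER membrane (chromosome 3, 137867675 to 137916557), had 2426 and 2024 counts in Fc-JAG1 1 and 3, 3 and 1593 in compE 1 and 2, against 2, 472 and 1 in washout libraries 1, 2 and 3. Both Fc-JAG1 libraries were above all others, at 75.5 ± 1.84 CPM (SD, n = 2), against 5.28 ± 9.03 CPM in the washout (SD, n = 3). By fit, the log2 fold change of the gene was 10.44 by edgeR (standard error 4.47, unadjusted p = 0.0296, adjusted p = 0.828) and 9.92 by DESeq2 (adjusted p = 9.06e-06). In fits that left out 1 library its DESeq2 adjusted p was at most 0.0177. The log2 fold change of Dnajb14 with no replicate block was 3.91 by edgeR (adjusted p = 0.844) and 4.30 by DESeq2, which gave it no adjusted p. For Dnajb14, too, washout 2 (472 counts) bears on the fold with the block only through compE. Hspa13 and Dnajb14 passed the filter only through Fc-JAG1, where they were high, so the direction of these folds is tied to the filter.

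Dnajb12, which shares the ER membrane with Dnajb14, had 3557 and 685 counts in Fc-JAG1 1 and 3, 88 and 1820 in compE 1 and 2, against 19, 2988 and 0 in washout libraries 1, 2 and 3. It was called higher by DESeq2 with Fc-JAG1 (log2 fold change 8.16, adjusted p = 0.00175), although washout 2 lay near the higher of the Fc-JAG1 libraries, and the adjusted p was 0.222 without Fc-JAG1 3 and 0.203 without washout 3. With no replicate block its DESeq2 log2 fold change was 1.26, with no adjusted p. Dnajc4, a little studied DNAJ gene (chromosome 19, 6987911 to 6992572), had 809 and 113 counts in Fc-JAG1 1 and 3, 1107 and 1348 in compE 1 and 2, against 0 in all 3 washout libraries. Against the floor of 3 counts in the washout library with the lowest total, 0.139 CPM, its mean of 14.5 ± 14.5 CPM with Fc-JAG1 (SD, n = 2) was at least 105-fold higher and that of 39.3 ± 0.510 CPM with compE (SD, n = 2) at least 284-fold higher. For the lower library of each, the bound was 30.9-fold with Fc-JAG1 and 281-fold with compE. This bound covers counting error only. Dnajc4 was the 1 chaperone gene that DESeq2 also called with no replicate block in both of these comparisons (adjusted p with the block 0.000524 for Fc-JAG1 and 0.000185 for compE). Without Fc-JAG1 1 the adjusted p for Fc-JAG1 was 0.0626, and without compE 1 that for compE was 0.325.

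Dnajc3, an ER protein that restrains the kinase PERK and carries the ER stress element shown above, had 3222 and 2986 counts in Fc-JAG1 1 and 3, 4940 and 2960 in compE 1 and 2, against 0, 5004 and 40 in washout libraries 1, 2 and 3. The washout thus held the lowest and the highest raw count, while in CPM compE 1 was the highest (174, against 166 in washout 2). DESeq2 called it higher with Fc-JAG1 (log2 fold change 6.40, adjusted p = 0.0421) and with compE (6.91, adjusted p = 0.0470). Without compE 1 its log2 fold change with compE was −0.91, and without washout 1 the adjusted p by DESeq2 was 0.360 for Fc-JAG1 and 0.852 for compE. With no replicate block its DESeq2 log2 fold changes were 1.41 for Fc-JAG1 and 1.82 for compE, with no adjusted p, and with TMM factors the adjusted p for compE was 0.0623.

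The genes that DESeq2 called lower with Fc-JAG1 were each low in Fc-JAG1 3. Hsph1, described above, had a log2 fold change of −4.32 (adjusted p = 0.0218), and Fc-JAG1 1 with 6771 counts lay within the 5185 to 18437 counts of the washout. Dnajb1, the heat-inducible partner of cytosolic HSP70, had 2760 and 0 counts in Fc-JAG1 1 and 3, 5448 and 3616 in compE 1 and 2, against 6846, 1780 and 948 in washout libraries 1, 2 and 3 (log2 fold change −4.90, adjusted p = 0.0457). Dnajc5 had 6503 and 82 counts in Fc-JAG1 1 and 3, 8159 and 8717 in compE 1 and 2, against 16721, 3827 and 4731 in washout libraries 1, 2 and 3 (log2 fold change −3.82, adjusted p = 0.00343). With TMM factors the DESeq2 adjusted p was 0.0695 for Hsph1 and 0.117 for Dnajb1. For all 3, DESeq2 made no call without Fc-JAG1 3 or with no replicate block, and Dnajc5 was called in 0 of the 7 fits that left out a library. Dnajc15, a mitochondrial DNAJ protein that slows respiration (chromosome 14, 77820681 to 77875125), was lower in each Fc-JAG1 and compE library than in all 3 washout libraries. It had 674 and 4 counts in Fc-JAG1 1 and 3, 9 and 448 in compE 1 and 2, against 9109, 1179 and 1593 in washout libraries 1, 2 and 3, which gave 10.4 ± 14.5 CPM with Fc-JAG1 (SD, n = 2), 6.75 ± 9.10 CPM with compE (SD, n = 2) and 170 ± 217 CPM in the washout (SD, n = 3). DESeq2 called it lower with Fc-JAG1 (log2 fold change −5.97, adjusted p = 0.0163) and with compE (−6.51, adjusted p = 0.0163), and neither call was made with no replicate block, without Fc-JAG1 3, without washout 1 or without washout 3.

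**Figure D4:**
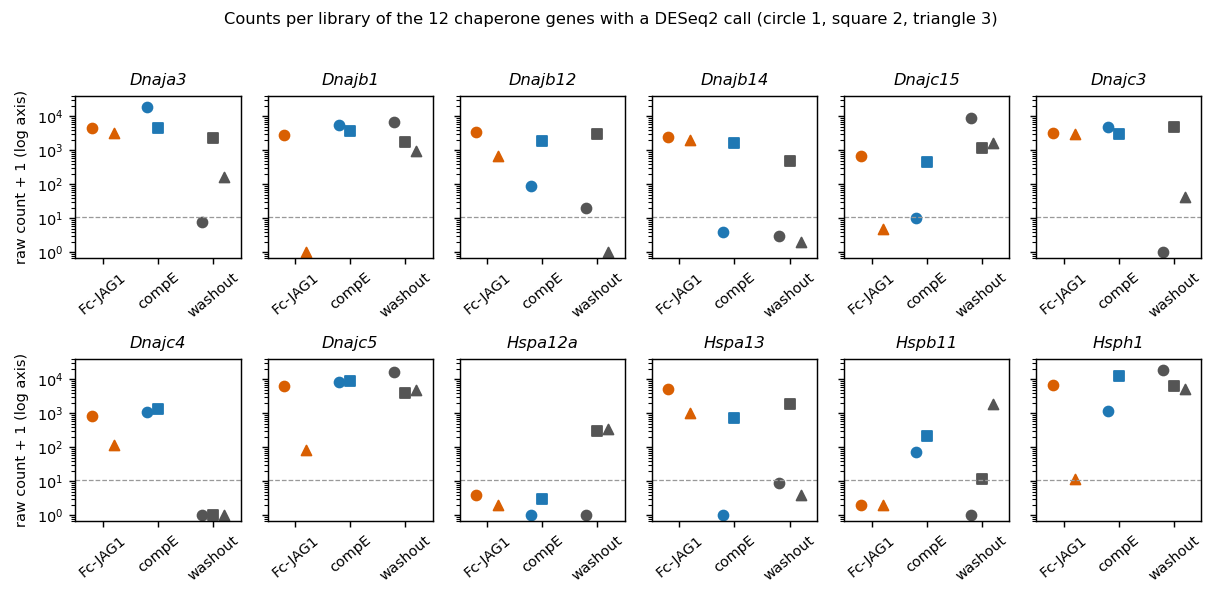
Raw count + 1 on a log axis (y) of the 12 chaperone genes that DESeq2 called in at least 1 comparison, by condition (x axis). Each symbol is a library, shaped by sample number, and the dashed line marks 10 counts. In Dnajc4 the 3 washout libraries sit at 0, and in Dnajc15 they sit above the other 4, whereas in most panels a condition spans several orders of magnitude.

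Hsp90ab1 and Hspa5 differed between conditions by less than the largest SD within a condition. Hsp90ab1 was at 1991 ± 935 CPM with Fc-JAG1 (SD, n = 2), 2474 ± 493 CPM with compE (SD, n = 2) and 2498 ± 347 CPM in the washout (SD, n = 3). By fit, the log2 fold change of the gene by edgeR was −0.48 with Fc-JAG1 (standard error 0.23, unadjusted p = 0.0480, adjusted p = 0.828) and −0.22 with compE (standard error 0.24, adjusted p = 1.00). By limma voom these were 0.026 and 0.045, so its direction depends on the fit. Hspa5 was at 902 ± 48.9 CPM with Fc-JAG1 (SD, n = 2), 864 ± 189 CPM with compE (SD, n = 2) and 1038 ± 301 CPM in the washout (SD, n = 3). By fit, the log2 fold change of the gene by edgeR was −0.47 with Fc-JAG1 (standard error 0.54, adjusted p = 0.992) and −0.09 with compE (standard error 0.55, adjusted p = 1.00). For Hspa8 it was 0.52 with Fc-JAG1 (standard error 1.15) and 0.73 with compE (standard error 1.13), both with an adjusted p of 1.00. The scale of such values is set by the normalization, since over all genes the median for Fc-JAG1 against the washout stood at 0.44 under TMM, at 0.07 under DESeq2's own factors and at 0.71 when libraries were scaled by their totals. The median of the chaperone genes was −0.28, −0.27 and −0.31 relative to these.

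Keeping Notch blocked with compE was likewise set against the washout. By edgeR, 0 of the 45 chaperone genes changed at an adjusted p under 0.05, as did 0% of all genes. At an unadjusted p under 0.05, Dnajc4 was higher (1 of 45, against 1.45% of all genes) and 0 were lower (1.18% of all genes). The edgeR adjusted p of Dnajc4 was 1.00. DESeq2 called 3 chaperone genes higher, against 5.66% of all genes, and 2 lower, against 3.67%. The 3 were Dnajc4, Dnajc3 and Dnaja3. Dnaja3, a mitochondrial DNAJ protein also known as Tid1 (chromosome 16, 4639989 to 4707695), had 4559 and 3180 counts in Fc-JAG1 1 and 3, 18467 and 4514 in compE 1 and 2, against 7, 2327 and 168 in washout libraries 1, 2 and 3. Each compE and Fc-JAG1 library of Dnaja3 was above all 3 washout libraries, at 391 ± 366 CPM with compE (SD, n = 2) and 27.7 ± 43.1 CPM in the washout (SD, n = 3), and the DESeq2 log2 fold change with compE was 6.17 (adjusted p = 0.00945). Without compE 1 that value was 0.80, and the call was made in 2 of the 7 fits that left out a library.

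The 2 genes called lower with compE were Dnajc15 and Hspa12a, a distant relative of HSP70. Both passed the filter only through the washout, where they were high. Hspa12a had 3 and 1 counts in Fc-JAG1 1 and 3, 0 and 2 in compE 1 and 2, against 0, 293 and 348 in washout libraries 1, 2 and 3 (log2 fold change −6.93, adjusted p = 0.0368), which DESeq2 also called with no replicate block but in 0 of the 7 fits that left out a library. By edgeR the median log2 fold change with compE was 0.13 for the 45 chaperone genes and −0.10 for all genes. In 5 chaperone genes, Hspa8, Dnaja3, Dnajc4, Dnajc14 and Dnajc21, both compE libraries were above all 3 washout libraries (11.0% of all genes), and in 3, Hspe1, Dnajc2 and Dnajc15, both were below (6.23% of all genes), in CPM. After division by TMM factors Hspd1 joined the first group (10.9% of all genes) and Hsp90aa1 the second (6.90% of all genes).

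Fc-JAG1 was also compared with compE, with 2 libraries each. By edgeR, 0 of 45 chaperone genes passed, as did 0% of all genes, and at an unadjusted p under 0.05 Hspa13 was higher with Fc-JAG1 (1 of 45, against 1.94% of all genes) and 0 were lower (0.892% of all genes). The edgeR log2 fold change of Hspa13 was 10.37 (standard error 4.72, adjusted p = 1.00). DESeq2 called Hspa13 (log2 fold change 11.90, adjusted p = 0.000184), Dnajb14 (8.93, adjusted p = 0.000959) and Dnajb12 (7.22, adjusted p = 0.0343) higher with Fc-JAG1, 3 of 45 against 9.18% of all genes. It called Hspb11 lower (−9.23, adjusted p = 0.0181), 1 of 45 against 2.21%. With no replicate block DESeq2 gave none of these 4 an adjusted p, and its log2 fold changes were 3.49 for Hspa13, 2.17 for Dnajb14, 1.46 for Dnajb12 and −6.85 for Hspb11. Without compE 1 the adjusted p was 0.140 for Hspa13, 0.303 for Dnajb14, 0.257 for Dnajb12 and 0.301 for Hspb11. The groups did not overlap, with both Fc-JAG1 libraries below both compE libraries, in 14 chaperone genes (31.1%, against 15.4% of all genes), among them Hspa8, Dnajb1, Dnajb9, Dnajb11, Dnajc4, Dnajc5, Dnajc10 and Hspb11. With both above, there were 7 (15.6%, against 14.7% of all genes), namely Hspa13, Hspe1, Dnajb14, Dnajc2, Dnajc8, Dnajc11 and Dnajc17. After division by TMM factors 14 were again below, with Hsp90ab1 in place of Hspa2 (15.5% of all genes). The same 7 were above (15.0% of all genes). Dnajc10, a reductase of the ER, had 2435 and 3 counts in Fc-JAG1 1 and 3, 6608 and 3190 in compE 1 and 2, against 4710, 818 and 4879 in washout libraries 1, 2 and 3. Dnajb9, which represses the ER stress sensor IRE1, had 625 and 0 counts in Fc-JAG1 1 and 3, 3273 and 956 in compE 1 and 2, against 0, 1230 and 1 in washout libraries 1, 2 and 3. In both genes the washout overlapped Fc-JAG1 and compE. Fc-JAG1 3 held fewer chaperone genes than either compE library, and the part of that difference in these counts was not tested. The median log2 fold change was −0.09 for the 45 chaperone genes and 0.43 for all genes.

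**Figure D5:**
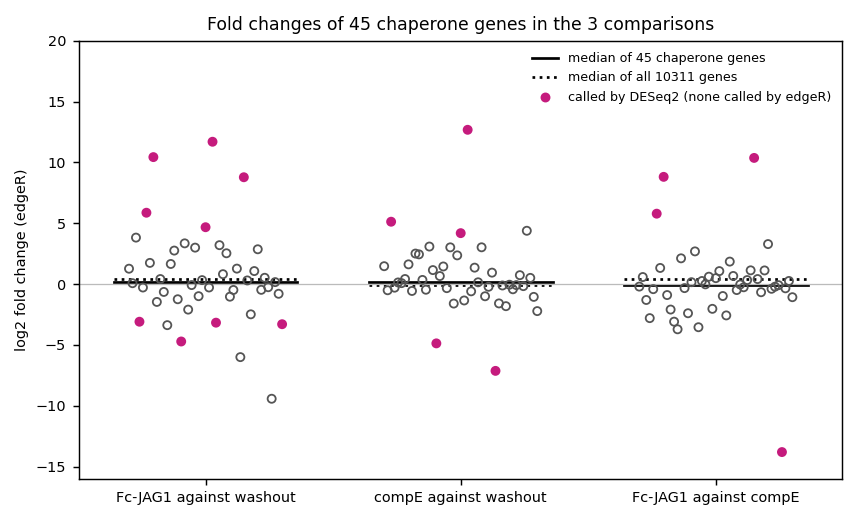
Log2 fold change by edgeR (y axis) of the 45 chaperone genes that passed the filter (circles, in order of symbol within a column) in the 3 comparisons (x axis), with the median of the 45 (solid) and of all 10311 genes (dotted). Filled circles are the genes that DESeq2 called, 9 with Fc-JAG1 and 5 with compE against the washout and 4 between Fc-JAG1 and compE, while edgeR called 0.

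Over the 3 comparisons DESeq2 made 18 calls in 12 chaperone genes. With edgeR, 4 of these 18 had an unadjusted p under 0.05 and their adjusted p ran from 0.828 to 1.00. With no replicate block DESeq2 kept 3 of the 18, lost 6 and gave no adjusted p for 9. By adjusted p alone, 2 of the 18, Hspa13 and Dnajb14 with Fc-JAG1 against the washout, passed in all 7 fits that left out a library. By the full rule 0 did, since both had 10 counts in only 1 washout library and so need both Fc-JAG1 libraries. Hspa13 and Dnajb14 passed the filter only through Fc-JAG1, and Dnajc4 only through Fc-JAG1 and compE, where they were high. Dnajc15 and Hspa12a passed it only through the washout. The direction of their calls is thus tied to the filter, and the left-out fits, run on the same filtered genes, cannot test it apart. The comparisons share washout, compE or Fc-JAG1 libraries, so that calls of a gene in more than 1 of them are not independent. The 7 left-out fits are not 7 separate tests either. Samples 2 and 3 each hold 1 washout library and 1 other, and once either is left out the block takes up the one that remains. By edgeR the chaperone median with Fc-JAG1 against the washout was 0.255 without compE 2 and without washout 2. It was 0.917 without Fc-JAG1 3 and without washout 3.

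Genes that work with the chaperones were followed by the same counts. Of 6 heat shock factors and regulators 4 passed the filter, and 0 were called by DESeq2 or edgeR in any comparison, and edgeR gave 0 of them an unadjusted p under 0.05. Hsf1, the factor of the heat shock response, had 6942 and 1 counts in Fc-JAG1 1 and 3, 0 and 7901 in compE 1 and 2, against 64, 5336 and 5538 in washout libraries 1, 2 and 3, so that Fc-JAG1 and compE each held a library at or near 0. Over all genes DESeq2 called 15.7% higher and 4.74% lower with Fc-JAG1 against the washout, 5.66% higher and 3.67% lower with compE against the washout, and 9.18% higher and 2.21% lower with Fc-JAG1 against compE, and the counts of the lists stand beside these shares. Of 29 co-chaperones of HSP70 and HSP90, all of which passed the filter, DESeq2 called 4 higher and 1 lower with Fc-JAG1, 0 higher and 1 lower with compE, and 2 higher and 0 lower between Fc-JAG1 and compE. Bag3, the co-chaperone of HSP70 in selective autophagy, had 1247 and 6219 counts in Fc-JAG1 1 and 3, 0 and 2294 in compE 1 and 2, against 0, 1233 and 0 in washout libraries 1, 2 and 3. DESeq2 called it in both comparisons of Fc-JAG1. It passed the filter only through Fc-JAG1, and washout 2 and compE 2 were near or above Fc-JAG1 1. Calls in these lists were not followed in the fits with no replicate block or with a library left out.

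Of 14 genes of the cytosolic chaperonin TRiC and its partner prefoldin, DESeq2 called 1 higher (against 15.7% of all genes) and 3 lower (4.74%) with Fc-JAG1, 1 higher (against 5.66%) and 0 lower with compE, and 0 between Fc-JAG1 and compE. Of 19 genes that passed the filter, among 20, of the unfolded protein response, it called 3 higher (against 15.7% of all genes) and 1 lower (4.74%) with Fc-JAG1, 0 with compE, and 1 higher (9.18%) and 0 lower between them. Eif2ak3, which encodes PERK, had 1149 and 521 counts in Fc-JAG1 1 and 3, 2 and 2959 in compE 1 and 2, against 1, 641 and 3 in washout libraries 1, 2 and 3, and DESeq2 called it in both comparisons of Fc-JAG1. Like Bag3, it passed the filter only through Fc-JAG1. Its count was highest in compE 2, and washout 2 lay between the Fc-JAG1 libraries. Of 10 immediate early genes that passed, among 12, which respond to dissociation and culture, it called 3 higher (against 15.7% of all genes) and 0 lower with Fc-JAG1, 1 higher (5.66%) and 2 lower (3.67%) with compE, and 2 higher (9.18%) and 0 lower between Fc-JAG1 and compE. By edgeR, 0 genes of these lists passed an adjusted p of 0.05 in any comparison. At an unadjusted p under 0.05 edgeR gave 1 co-chaperone and 1 immediate early gene higher with Fc-JAG1 and 1 of each lower with compE. Among the cell type markers, DESeq2 called Epor, an erythroid gene, higher with Fc-JAG1, Gfi1 and the macrophage gene Lyz2 lower with compE, and Lyz2 higher with Fc-JAG1 than with compE. The part of these cells in the values of the chaperones was not tested.

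The libraries carry no molecular identifiers, so that a high count can come from few captured molecules. The p-values measure only the spread between these samples, which may be technical. Reads of overlapping genes may be split or dropped in counting. Genes on the other strand share exon with, among others, Hspa1l (1778 bp), Dnaja4 (1581 bp), Dnajc14 (1252 bp), Dnaja1 (857 bp), Hspa1a (564 bp) and Hsp90b1 (415 bp). Genes on the same strand share exon with, among others, Hspa14 (321 bp), Hspa8 (262 bp) and Hsp90b1 (217 bp).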

How the data were processed

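The authors deposited raw counts per gene of nascent, EU-labelled RNA for 7 libraries. Per the methods, reads of 50 bp were trimmed with cutadapt 4.2, aligned to GRCm38 with STAR 2.7.8, kept where uniquely mapped and counted with featureCounts (Subread 2.0.1) against Ensembl release 102 with the gene as the feature, and the authors tested them with DESeq2 1.38.3. No molecular identifiers were used, so depth, 21652927 to 33974693 counts per library, covers counting error only. The deposited filtered counts held the same values and the same 10311 genes as the filter computed here.

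Samples were grouped by the labels. Genes that reached 10 counts in 2 or more libraries of a condition were fitted with edgeR 4.0.16 (R 4.3.3, TMM factors, quasi-likelihood test) and with DESeq2 1.42.0, both with condition and sample number as terms and Benjamini-Hochberg adjustment at 0.05 over all 10311 genes. The labels call a sample number an embryo and the methods treat same-numbered samples as paired. Deviations from the condition mean correlated at -0.0854 to 0.0915 in 5 same-numbered pairs. In pairs of unlike number they did so at -0.0964 to 0.0964, a range that includes the first. In a condition of 2 libraries the deviations are exact opposites, so the pairs are not separate values. The scripts were tested on simulated counts. A pass was required only at a dispersion far below that of these data, so this checks the code and not the power of the fits. Members were chosen by symbol, and members, lists and named genes (fixed members, those past a test, those at 10 counts in all libraries and the 10 highest per kb) were chosen with earlier results of these data known. Alternatives were DESeq2, limma 3.58.1 voom, the likelihood ratio test, other factors and filters, no replicate block and leaving out each library. Windows of 50 bases shared between genes were counted on GENCODE M21 transcripts, and promoters came from RefSeq. Figures used matplotlib 3.10.9. Fc-JAG1 2 was not analysed here.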

Additional observations from a re-analysis of the deposited data

Results flagged for a closer look

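Counts also occurred in pseudogene entries of the chaperonin pair, which are not among the 72 genes. The highest count in a library was 272 for Hspd1-ps5 (Fc-JAG1 1) and 9 for Hspe1-ps1 (Fc-JAG1 3), each above the 3 counts that a count of 0 allows, and neither entry passed the filter. Hspd1-ps3, at most 61 counts (compE 2), passed it and was fitted with all genes. Their source was not tested.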

How the results depend on the processing

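By edgeR 0 chaperone genes were called in each comparison under all alternatives other than the DESeq2 Wald test, which called 9 (Fc-JAG1 against washout), 5 (compE against washout) and 4 (Fc-JAG1 against compE). Those DESeq2 counts fell to 2, 2 and 0 with no replicate block, where 9 of the 18 calls had no adjusted p, and to 4, 1 and 2 with no filter on low counts. Leaving out 1 library gave 1 to 12, 0 to 5 and 0 to 9 calls, and the lone library of Fc-JAG1 or compE is then assumed to vary like the other groups. The log2 fold change of Hspa5 with compE against washout was 0.071 by limma voom, 0.38 without compE 1 and 0.14 without washout 1 (left-out range −0.52 to 0.38). That of Hsp90ab1 was 0.026 with Fc-JAG1 and 0.045 with compE by limma voom, and 0.049 with compE without compE 1 (left-out range −0.48 to 0.049). That of Dnajc3 by DESeq2 with compE ran from −0.91 to 11.45. The cause was not tested. The median of the chaperone genes less that of all genes changed sign with Fc-JAG1 against washout without Fc-JAG1 3 (0.10) or washout 3 (0.08), and with compE against washout without Fc-JAG1 1 (−0.05), Fc-JAG1 3 (−0.04) or washout 3 (−0.05). With 2 or 3 libraries a condition and a common dispersion of 2.42, the fits resolve only large differences.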
